A study of Mus musculus with 24 samples.

Results

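The 10 transcripts described here encode proteins that coat the cytosolic lipid droplet and enzymes that break down the triacylglycerol inside it: *Plin1*, *Plin2*, *Plin4*, *Plin5*, *Cidec*, *Pnpla2*, *Abhd5*, *G0s2*, *Pnpla3* and *Lipe*. They were picked by gene symbol from a table of 24532 genes, and each symbol matched a single entry. RNA of whole tissue was sequenced from C57BL/6 mice fed chow and labelled as 8 weeks of age, in liver, inguinal white adipose tissue (iWAT), gastrocnemius muscle (GM) and hypothalamus. The Ctrl mice were *Crif1*flox/flox, and the LKO mice were Alb-Cre;*Crif1*flox/flox, so that both genotypes carried the floxed alleles of *Crif1* and the Cre recombinase was driven by the albumin promoter, which is active in hepatocytes. Each group held 3 libraries, so n = 3 for every mean ± SD below. No label ties a liver to the iWAT or GM of the same animal, and none says how the replicates were raised, so p-values measure the spread between these libraries.

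*Crif1* (listed as *Gadd45gip1*) is a component needed to make the mitochondrially encoded subunits of oxidative phosphorylation, and its loss in the liver impairs hepatic respiration. Triacylglycerol is stored in droplets whose surface carries perilipins, which limit the access of lipases, and Cidec, which promotes the fusion and growth of droplets. Release of fatty acids starts with the lipase ATGL (*Pnpla2*), which is activated by its co-activator CGI-58 (*Abhd5*) and blocked by the small inhibitor G0s2, and continues with hormone-sensitive lipase (*Lipe*). White adipocytes use Plin1 as the gatekeeper of this pathway, while liver and muscle rely on Plin2 and Plin5.

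The upstream sequences of 3 genes are shown because the values below turn on them: *Plin2* was the most abundant transcript of the set in liver, *G0s2* had a fold change of opposite sign in liver to those in iWAT and GM, and *Pnpla3* carried the only cyclic AMP response element found. Each window runs from 250 bases before to 50 bases after the annotated start of transcription and is written 5′ to 3′ on the strand of the gene, from RefSeq on GRCm38.p6, the assembly that mm10 names. Capitals mark a match to one of the motifs searched.
*Plin2*, chr4:86670010-86670309, minus strand: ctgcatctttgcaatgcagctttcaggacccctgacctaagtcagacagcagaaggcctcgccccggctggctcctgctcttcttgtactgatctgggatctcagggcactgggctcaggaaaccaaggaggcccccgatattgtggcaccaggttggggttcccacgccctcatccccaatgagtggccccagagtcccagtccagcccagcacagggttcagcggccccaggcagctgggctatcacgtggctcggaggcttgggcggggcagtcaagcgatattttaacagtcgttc
*G0s2*, chr1:193273139-193273438, minus strand: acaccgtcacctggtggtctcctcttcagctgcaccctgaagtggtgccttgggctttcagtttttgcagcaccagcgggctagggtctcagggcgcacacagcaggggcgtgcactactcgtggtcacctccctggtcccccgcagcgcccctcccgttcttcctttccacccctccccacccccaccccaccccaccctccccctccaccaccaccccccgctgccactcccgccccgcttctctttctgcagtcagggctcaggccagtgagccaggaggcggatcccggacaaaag
*Pnpla3*, chr15:84167566-84167865, plus strand: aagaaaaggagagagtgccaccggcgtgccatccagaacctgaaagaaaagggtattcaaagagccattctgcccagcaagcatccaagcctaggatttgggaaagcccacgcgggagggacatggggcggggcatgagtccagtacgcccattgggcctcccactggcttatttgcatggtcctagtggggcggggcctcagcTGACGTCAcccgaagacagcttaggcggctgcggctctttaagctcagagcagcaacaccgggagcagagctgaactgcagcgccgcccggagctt

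All 10 genes had a window in the RefSeq table, and 3 of them (*Cidec*, *Lipe* and *Plin5*) had more than 1, which gave 13 windows. The cyclic AMP response element TGACGTCA was found once, 46 bases before the start of *Pnpla3*, and 1.79% of the 32851 windows of all genes hold it. A FOXO site, GTAAACA, was found on the opposite strand 119 bases before the inner start of *Lipe*, and 3.65% of all windows hold it. The remaining searches, on both strands except for the TATA box, which was searched on the strand of the gene, had no match in these windows: the DR1 element of PPAR and RXR, AGGTCA repeated with 1 base between (0.0396% of all windows), the same element with the fourth base of each AGGTCA free (0.381%), the glucocorticoid receptor palindrome, GNACA and TGTNC with 3 bases between (0.475%), the element TGATGCAAT of C/EBP and ATF factors (0.192%) and the TATA box TATAAA (8.32%). Every match of the first DR1 search is also a match of the second. The windows were rich in G and C, from 55.7% in *Plin1* and in the outer window of *Cidec* to 69.3% in the inner window of *Plin5*, beside a median of 52.7% over all windows.

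The genes lie on 7 chromosomes. *Plin4* (chr17:56100591-56109802) and *Plin5* (chr17:56111601-56117548) are neighbours on the minus strand with 1798 bases between them. The last 14 bases of *Plin4* are shared with *Hdgfl2* on the opposite strand, *Pnpla3* (chr15:84167816-84189521) holds the short *Mir6392*, and the whole span of *Lipe* (chr7:25379527-25395987) lies within that of *4732471J01Rik* on the opposite strand. The library kit does not mark strand, so reads from such overlaps cannot be told apart. *Hdgfl2* stood between 14.1 and 17.8 FPKM (sequenced fragments divided by transcript length and by the size of the library) in all 6 liver libraries, and *4732471J01Rik* at no more than 20.1 FPKM in any library of the 3 tissues.

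The deletion was visible in the liver libraries. *Gadd45gip1* stood at 14.6, 12.5 and 13.6 FPKM in liver Ctrl 1, 2 and 3 and at 5.40, 2.002 and 2.51 FPKM in LKO 1, 2 and 3, a log2 fold change of −1.84 (SE 0.27, adjusted p = 0.00357), or −2.16 after the median-ratio scaling described below. The LKO library 1 had the highest remaining level of the 3. In iWAT and GM the groups overlapped for this gene. Other marker lists moved with the genotype in liver. All 6 macrophage markers rose (summed level 67.1 to 74.3 FPKM in Ctrl, 179 to 307 FPKM in LKO). So did all 4 tested markers of the list used for duct epithelium (192 to 285 FPKM in Ctrl, 671 to 786 FPKM in LKO). *Krt14*, the last of that list, was below 0.05 FPKM in every liver library. Of all genes tested in liver, 23.9% were called as higher, and 53% were higher in LKO without overlap. The sums are not scaled. The brown adipocyte list was lower in LKO without overlap (331 to 473 FPKM in Ctrl, 35.3 to 62.0 FPKM in LKO), most of which was *Elovl3*, an elongase of long fatty acids, while *Ucp1*, *Dio2* and *Otop1* were below 0.05 FPKM in every liver library. Of the 7 hepatocyte markers, 2 were called at the adjusted criterion defined below, beside 27.4% of all genes tested in liver. The summed level of the 7 overlapped between the groups. The summed level of the 8 adipocyte markers was 14.9 to 17.2 FPKM in Ctrl and 27.0 to 35.6 FPKM in LKO, without overlap, of which *Fabp4* made up most, while *Adipoq* did not exceed 0.278 FPKM and *Lep* and *Acvr1c* stayed below 0.05 FPKM in every liver library. The markers of each labelled tissue were high in it: the hepatocyte markers summed to 51340 to 78422 FPKM in liver, the adipocyte markers to 38981 to 48568 FPKM in iWAT and the skeletal muscle markers to 104940 to 117710 FPKM in GM. The GM libraries differed in adipocyte markers, which were highest in LKO 1, Ctrl 2 and Ctrl 1. In bulk tissue, fewer or more cells of a type and less or more RNA per cell cannot be told apart, and the part of these cell types in the liver results below was not tested.

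In Ctrl mice the set was led by iWAT. *Plin1*, *Cidec* and *Pnpla3* had liver means under 1 FPKM and entered the test through the tissues where they are high, so they are not counted between iWAT and liver. Of the other 7 transcripts, 5 were higher in iWAT than in liver and 1 was lower, and of all 10, 9 were higher in iWAT than in GM at an adjusted p under 0.05, where 84.5% and 81.3% of all genes tested differed in either direction. *Cidec* had 1438 ± 138 FPKM in iWAT, the 22nd highest level of the whole table there, and *Pnpla2* had 1144 ± 53.7 FPKM. *Plin1*, the perilipin of white adipocytes, had 923 ± 163 FPKM in iWAT, 9.20 ± 6.49 FPKM in GM and 0.0190 ± 0.0190 FPKM in liver. As a ratio of means, the gap between iWAT and liver was largest for *Plin1* and then for *Cidec*, which had 0.789 ± 0.276 FPKM in liver. These ratios, and that of *Pnpla3*, rest on liver means under 1 FPKM. *Pnpla3*, an acyltransferase and lipase of the droplet, followed with 291 ± 65.9 against 0.266 ± 0.176 FPKM, and *Lipe* had 701 ± 95.3 against 4.37 ± 0.435 FPKM.

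The perilipins of cells that are not adipocytes had another order. *Plin2* had 253 ± 62.5 FPKM in iWAT and 221 ± 32.5 FPKM in liver, which did not differ beyond their spread (log2 difference 0.17, SE 0.32, adjusted p = 0.636), and 17.6 ± 2.33 FPKM in GM. *Plin5*, which ties droplets to mitochondria, was highest in liver (29.5 ± 1.25 FPKM) and did not differ beyond the spread between GM (14.2 ± 1.56 FPKM) and iWAT (13.7 ± 3.15 FPKM, adjusted p = 0.799). *Plin4* had 612 ± 60.7 FPKM in iWAT, 64.7 ± 16.3 FPKM in GM and 2.07 ± 0.668 FPKM in liver. Between GM and liver, *Abhd5* (11.8 ± 1.15 and 10.9 ± 1.45 FPKM, adjusted p = 0.482) and *G0s2* (36.3 ± 15.4 and 20.8 ± 6.45 FPKM, adjusted p = 0.0892) were the pairs of neighbours that missed the threshold. In the hypothalamus all 10 transcripts had Ctrl means below 16 FPKM, with *Pnpla2* the highest at 15.8 ± 2.77 FPKM. There *Plin4* and *Pnpla2* were higher in every LKO library than in any Ctrl library, as were 4.74% of all genes tested there, and neither passed the adjusted test described below.

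**Figure D1:**
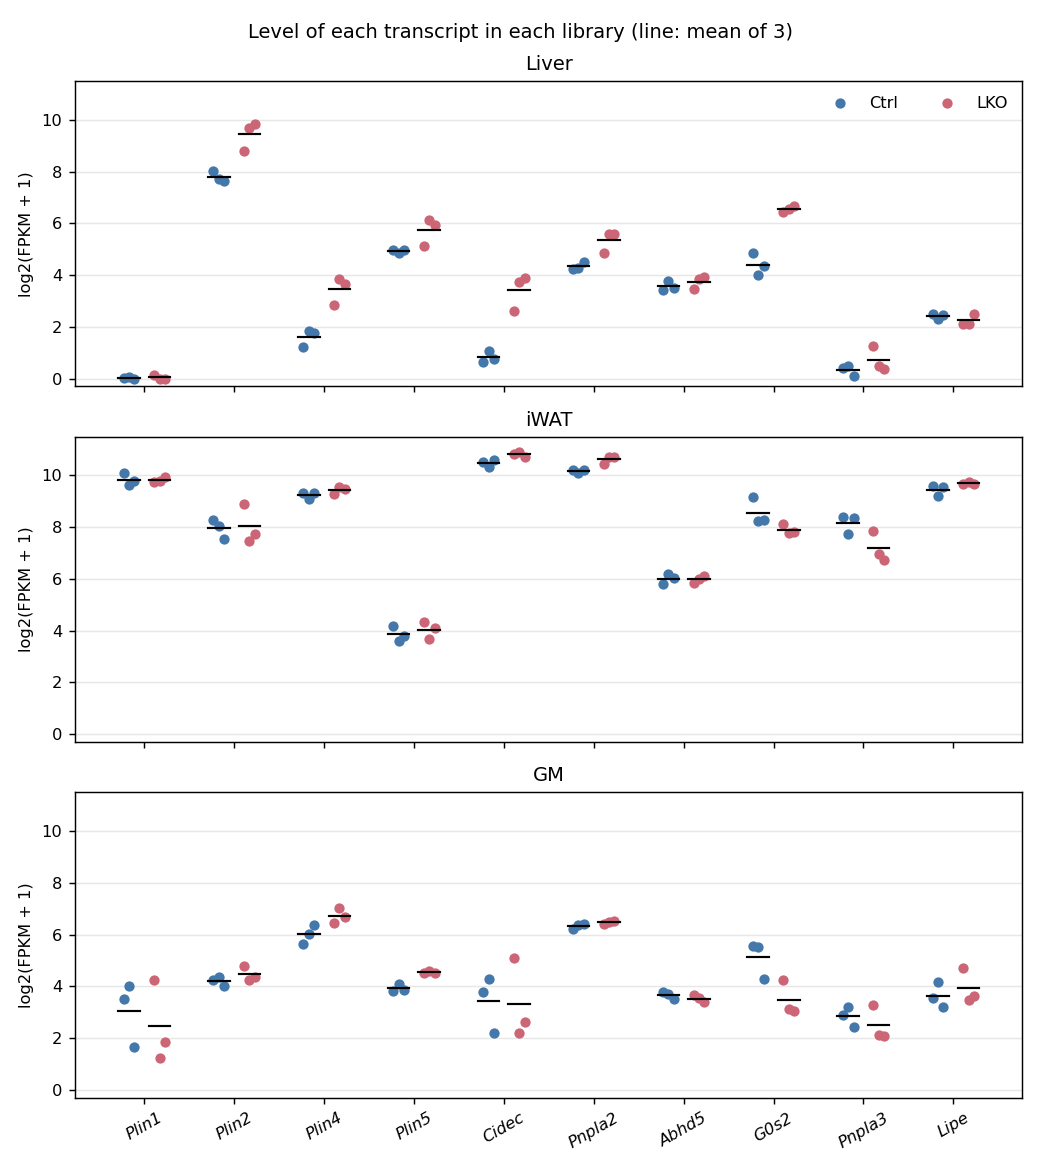
Level of each transcript in each library as log2(FPKM + 1), in liver, iWAT and GM, with blue points for Ctrl, red points for LKO and a black line at the mean of 3 libraries. In liver the LKO points of *Plin2*, *Plin4*, *Plin5*, *Cidec*, *Pnpla2* and *G0s2* lie above every Ctrl point, in iWAT most transcripts sit at high levels in both groups, and in GM *Plin1* and *Cidec* vary widely within each group.

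In the liver of LKO mice the perilipins *Plin2*, *Plin4* and *Plin5*, the lipase *Pnpla2* and its inhibitor *G0s2* rose, while the co-activator *Abhd5* and the hormone-sensitive lipase *Lipe* did not pass the test. Changes were tested with limma on log2(FPKM + 1), leaving out genes that reached 1 FPKM in fewer than 3 of the 6 libraries, and a call needed a fold change of at least 1.5 together with a p below 0.05 after Benjamini-Hochberg adjustment over every gene tested in that tissue. Of the 10 transcripts, 8 passed the filter in liver, and *Plin1* and *Pnpla3* were too low to test. *Cidec*, with a Ctrl mean under 1 FPKM, passed only through its LKO libraries, which favoured a difference, and it is left out of the counts here. Of the other 7, 5 were called, all higher in LKO, where 27.4% of all 10956 genes tested were called in either direction and 23.9% as higher. The liver comparison as a whole was shifted: the median log2 fold change of all genes tested was 0.33, and it was −0.01 after median-ratio scaling of the libraries, so the scaled value is given with the liver changes. On the scaled values 4 of the 7 were called, all higher, beside 17.3% of all genes in either direction and 9.78% as higher.

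Among the perilipins of liver, *Plin2*, the constitutive coat protein of hepatocyte droplets, stood at 258, 208 and 198 FPKM in Ctrl 1, 2 and 3 and at 447, 825 and 922 FPKM in LKO 1, 2 and 3. Every LKO library lay above every Ctrl library, as for 5 of the 7 transcripts counted and for 53% of all genes tested in liver, and LKO 1 lay well below the other 2. The level rose by 1.66 on the log2 scale (SE 0.27, adjusted p = 0.00511), and by 1.26 (adjusted p = 0.00794) after scaling. *Plin4*, a perilipin best known from adipocytes and muscle, stood at 1.302, 2.54 and 2.35 FPKM in Ctrl and at 6.27, 13.5 and 11.7 FPKM in LKO. The groups did not overlap, and the log2 fold change was 1.87 (SE 0.29, adjusted p = 0.00412), or 1.55 (adjusted p = 0.00718) after scaling. Even so, *Plin4* in LKO liver (10.5 ± 3.78 FPKM) remained far below its level in iWAT.

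*Plin5* rose less firmly. Its levels were 30.1, 28.1 and 30.4 FPKM in liver Ctrl 1, 2 and 3 and 34.1, 68.8 and 60.9 FPKM in LKO 1, 2 and 3. Although the groups did not overlap, LKO 1 was within 4 FPKM of the highest Ctrl library. The log2 fold change of 0.81 (SE 0.24) was called at an adjusted p of 0.0345, but the scaled value of 0.42 was not (adjusted p = 0.133). The call was also lost without any of the 3 Ctrl libraries (adjusted p = 0.0867 without Ctrl 1, 0.103 without Ctrl 2 and 0.0917 without Ctrl 3), without LKO 2 (adjusted p = 0.114) and without LKO 3 (adjusted p = 0.0912).

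*Cidec*, which joins droplets and lets them grow in white adipocytes, stood at 0.565, 1.10 and 0.704 FPKM in liver Ctrl and at 5.06, 12.4 and 13.8 FPKM in LKO, still far under its level in iWAT. The log2 fold change was 2.58 (SE 0.33), or 2.30 after scaling, given as a description because the gene was tested only through its LKO libraries. *Plin1* did not exceed 0.0969 FPKM and *Adipoq* 0.278 FPKM in any liver library, whereas *Fabp4* and the summed adipocyte markers were higher in every LKO library than in any Ctrl library. The part of adipocytes in the *Cidec* values was not tested.

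In the lipolytic branch of liver, the transcripts of both ATGL and its inhibitor rose. *G0s2*, the inhibitor of ATGL, stood at 27.9, 15.2 and 19.3 FPKM in liver Ctrl 1, 2 and 3 and at 85.2, 93.8 and 99.99 FPKM in LKO 1, 2 and 3. The LKO libraries lay close together and more than 57 FPKM above the highest Ctrl library. Its log2 fold change was 2.15 (SE 0.20, adjusted p = 0.00103), and 1.76 (adjusted p = 0.00236) after scaling. *Pnpla2*, which encodes ATGL, stood at 18.05, 18.2 and 21.6 FPKM in Ctrl and at 27.95, 47.5 and 47.6 FPKM in LKO. It rose by 1.02 on the log2 scale (SE 0.21, adjusted p = 0.0112), and by 0.63 (adjusted p = 0.0256) after scaling. Without LKO 2 this call was lost (adjusted p = 0.0532, log2 fold change 0.89).

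*Abhd5* and *Lipe* did not pass the test in liver. *Abhd5* stood at 9.71, 12.5 and 10.4 FPKM in liver Ctrl and at 10.1, 13.4 and 14.3 FPKM in LKO, with a log2 fold change of 0.19 (95% interval −0.19 to 0.56, adjusted p = 0.345) and of −0.18 after scaling (adjusted p = 0.270). *Lipe* stood at 4.68, 3.87 and 4.55 FPKM in Ctrl and at 3.35, 3.37 and 4.71 FPKM in LKO, a log2 fold change of −0.17 (95% interval −0.51 to 0.18, adjusted p = 0.363). The groups overlapped for both. After scaling, *Lipe* was lower by 0.49 on the log2 scale with an adjusted p of 0.0143, which is under the fold change of 1.5. *Pnpla3* was above 1 FPKM in 1 liver library only, LKO 1 at 1.38 FPKM, with the other 5 between 0.0682 and 0.410 FPKM.

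**Figure D2:**
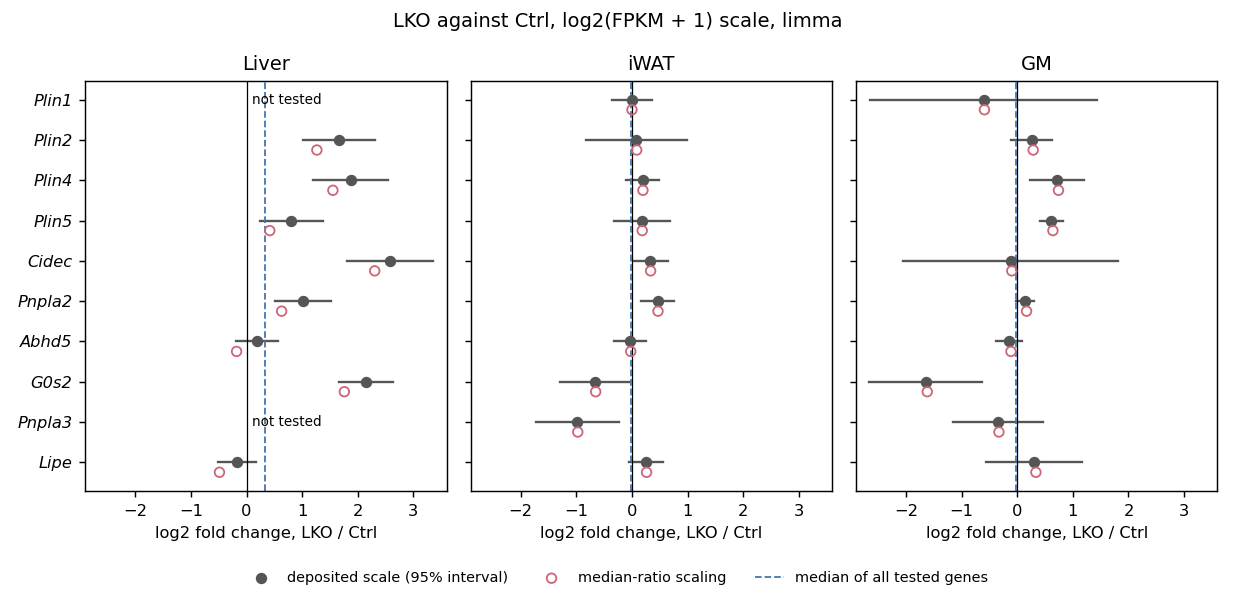
Log2 fold change of LKO over Ctrl for each transcript in liver, iWAT and GM on the log2(FPKM + 1) scale, with grey points and 95% intervals from limma, open red points after median-ratio scaling and a dashed line at the median of all genes tested. In liver the grey points of *Plin2*, *Plin4*, *Plin5*, *Pnpla2* and *G0s2* lie above the dashed line at 0.33, as does that of *Cidec*, which was tested only through its LKO libraries, and *G0s2* lies right of 0 in liver and left of 0 in iWAT and GM.

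In iWAT, where most of these transcripts are most abundant, no member was called by limma at the adjusted threshold, and neither was any of the 12288 genes tested (0%). Of the 10 transcripts, all tested, 4 had an unadjusted p under 0.05, beside 15% of all genes tested, and 2 of these, *G0s2* and *Pnpla3*, also passed a fold change of 1.5, both lower in LKO, beside 3.25% of all genes in either direction and 1.29% as lower. The groups did not overlap for 4 of the 10, *Cidec*, *Pnpla2* and *Lipe* as higher and *G0s2* as lower, beside 20.8% of all genes tested. Leaving out Ctrl 1, LKO 2 or LKO 3 left 0 of the transcripts past the unadjusted criterion, and leaving out Ctrl 3 left 1. After median-ratio scaling, *Pnpla3* alone passed it, beside 1.25% of all genes as lower.

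*Pnpla3* stood at 334, 215 and 323 FPKM in iWAT Ctrl 1, 2 and 3 and at 229, 123 and 106 FPKM in LKO 1, 2 and 3. The LKO 1 library lay above Ctrl 2, so the groups overlapped. Its log2 fold change was −0.98 (SE 0.31, 95% interval −1.73 to −0.23, adjusted p = 0.232), the 35th lowest of all genes tested in iWAT. *G0s2* stood at 573, 298 and 311 FPKM in Ctrl and at 280.0, 216 and 222 FPKM in LKO. Its groups did not overlap, but Ctrl 1 was far above the other 2 and LKO 1 was 18.2 FPKM below Ctrl 2. The log2 fold change was −0.66 (SE 0.26, 95% interval −1.29 to −0.03, adjusted p = 0.313), and −0.35 without Ctrl 1.

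The lipase *Pnpla2* had a fold change of opposite sign to that of its inhibitor in iWAT. It stood at 1176, 1082 and 1173 FPKM in Ctrl and at 1400, 1667 and 1673 FPKM in LKO, without overlap. The log2 fold change of 0.46 (SE 0.13, 95% interval 0.16 to 0.76, adjusted p = 0.178) was under the fold change of 1.5. *Cidec* stood at 1459, 1291 and 1565 FPKM in Ctrl and at 1799, 1926 and 1688 FPKM in LKO, a log2 fold change of 0.33 (SE 0.13, 95% interval 0.01 to 0.64, adjusted p = 0.313). *Lipe* stood at 766, 591 and 745 FPKM in Ctrl and at 822, 868 and 808 FPKM in LKO, a log2 fold change of 0.26 (SE 0.13, adjusted p = 0.410), or 0.14 without Ctrl 2. These 3 transcripts were thus each higher in every LKO library than in any Ctrl library, with fold changes between the groups under 1.5.

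The perilipins of iWAT and *Abhd5* overlapped between the groups. *Plin1* stood at 1104, 787 and 876 FPKM in Ctrl and at 869, 888 and 976 FPKM in LKO, a log2 fold change of −0.01 (95% interval −0.37 to 0.35). *Abhd5* had a log2 fold change of −0.03 (95% interval −0.31 to 0.26). For *Plin4* it was 0.19, for *Plin5* 0.18 and for *Plin2* 0.08, where the interval of *Plin2* ran from −0.83 to 0.99 because LKO 1, at 470.4 FPKM, stood far above the other iWAT libraries (177 to 311 FPKM). Leaving out 1 library gave 0.11 to 0.27 for *Plin4* and 0.034 to 0.36 for *Plin5*. Of the 8 adipocyte markers, 1 (*Lep*) passed the unadjusted criterion in iWAT, and their summed levels overlapped (42252 to 46756 FPKM in Ctrl, 38981 to 48568 FPKM in LKO), while their mean log2(FPKM + 1) was lower in LKO without overlap (9.20 to 9.36 in Ctrl, 9.11 to 9.18 in LKO). Of the tested markers, 3 of 4 for red blood cells and 2 of 6 for brown adipocytes also passed the unadjusted criterion in iWAT, each list with overlapping sums. The 7 hepatocyte markers summed to 14.4 to 26.0 FPKM in Ctrl and 37.0 to 56.8 FPKM in LKO, without overlap, with 1 of the 2 tested past the unadjusted criterion, and the 7 skeletal muscle markers to 40.5 to 954 FPKM with overlap. Their part in the iWAT values was not tested.

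In GM, too, no member was called by limma at the adjusted threshold, nor was any of the 10877 genes tested (0%). Of the 10 transcripts, all tested, 3 passed the unadjusted criterion, beside 0.901% of all genes: *Plin4* and *Plin5* were higher in LKO (0.579% of all genes) and *G0s2* was lower (0.322% of all genes). No other member had an unadjusted p under 0.05, which 6.83% of all genes tested had. The same 3 were those whose groups did not overlap, beside 11.6% of all genes tested. The count fell to 1 without Ctrl 1 or without LKO 2.

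*Plin5*, the perilipin of oxidative muscle, stood at 13.1, 16.0 and 13.6 FPKM in GM Ctrl 1, 2 and 3 and at 21.8, 23.3 and 21.6 FPKM in LKO 1, 2 and 3. Both groups were tight and lay more than 5 FPKM apart. The log2 fold change was 0.61 (SE 0.09, 95% interval 0.41 to 0.82, adjusted p = 0.327). *Plin4* stood at 48.6, 64.2 and 81.2 FPKM in Ctrl and at 86.5, 129.97 and 101 FPKM in LKO, a log2 fold change of 0.71 (SE 0.21, 95% interval 0.23 to 1.199, adjusted p = 0.563), the 45th highest of all genes tested in GM. Its Ctrl 3 and LKO 1 libraries were close to each other.

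*G0s2* stood at 45.7, 44.8 and 18.5 FPKM in GM Ctrl and at 18.2, 7.68 and 7.20 FPKM in LKO. The groups touched: the lowest Ctrl library and the highest LKO library differed by less than 0.5 FPKM. Its log2 fold change was −1.64 (SE 0.43, 95% interval −2.66 to −0.63, adjusted p = 0.516), the 12th lowest of the 10877 genes tested. In a fit of all 24 libraries, which takes the spread from every tissue and called 0.202% of all genes in GM, the adjusted p was 0.0298, within a range of 0.0298 to 0.9998 over the alternatives run.

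Other transcripts of the set varied in GM in the order of the adipocyte markers. *Plin1* stood at 10.5, 15.0 and 2.17 FPKM in GM Ctrl 1, 2 and 3 and at 18.1, 1.37 and 2.65 FPKM in LKO 1, 2 and 3, *Cidec* at 12.8, 18.5 and 3.56 FPKM and at 33.1, 3.53 and 5.20 FPKM in the same order. *Adipoq*, which defines adipocytes, stood at 27.3, 39.1 and 6.62 FPKM in Ctrl and at 48.1, 6.53 and 10.5 FPKM in LKO, and the 8 adipocyte markers summed to 292 to 842 FPKM in Ctrl and 306 to 975 FPKM in LKO. In all of these, LKO 1 was the highest library, followed by Ctrl 2 and Ctrl 1. *Lipe* was highest in the same LKO 1 library (25.4 FPKM, against 8.14 to 17.1 FPKM elsewhere), as was *Pnpla3* (8.66 FPKM, against 3.26 to 8.26 FPKM). The 5 lymph node markers summed to 23.2 FPKM in LKO 1 and to at most 6.05 FPKM in the other libraries. *Plin5* did not follow the adipocyte markers, while *G0s2* was highest in Ctrl 1 and Ctrl 2 and, among LKO, in LKO 1.

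With the mean of the adipocyte markers as a covariate in GM, an alternative chosen after seeing the data, the log2 fold change of *G0s2* was −1.46 (adjusted p = 0.0359, with 0.0184% of all genes called) and that of *Cidec* turned from −0.12 to 0.25 (adjusted p = 0.391), over alternatives with adjusted p from 0.391 to 0.9998 for *Cidec*. *Pnpla2* (74.2, 81.3 and 84.2 FPKM in Ctrl, 83.7, 89.9 and 90.4 FPKM in LKO) and *Abhd5* (9.56 to 12.6 FPKM over the 6 libraries) differed by less than 0.15 on the log2 scale. For *Plin2* the log2 fold change was 0.26 (95% interval −0.11 to 0.63), or 0.096 without LKO 1.

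**Figure D3:**
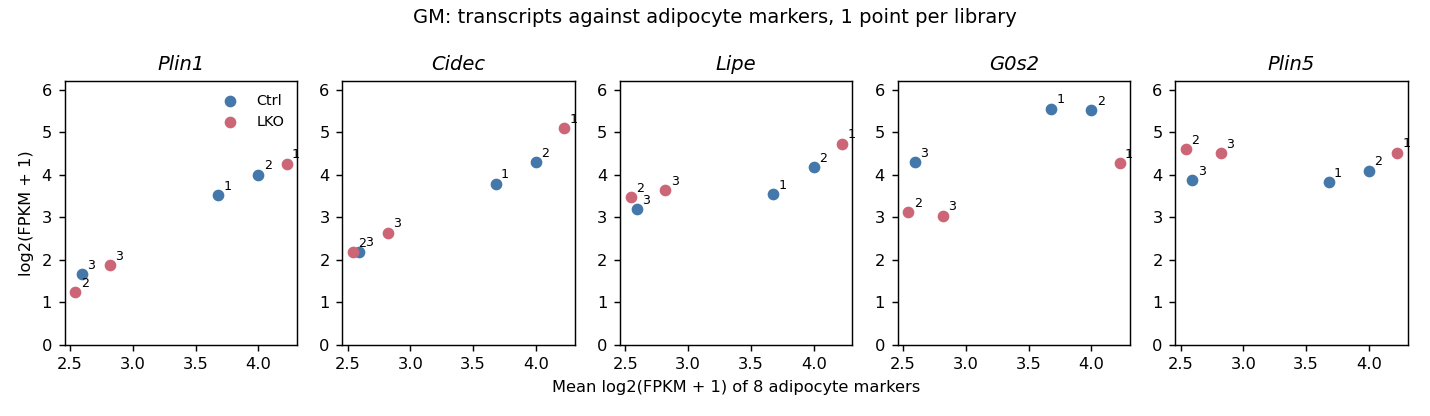
Level of 5 transcripts in the 6 GM libraries as log2(FPKM + 1) against the mean log2(FPKM + 1) of 8 adipocyte markers, with blue points for Ctrl, red points for LKO and the replicate number beside each point. *Plin1*, *Cidec* and *Lipe* are highest in LKO 1, which has the highest marker mean, while the LKO points of *G0s2* lie below and those of *Plin5* above the Ctrl points at like marker means.

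Ratios between transcripts of the same library do not change when the library is scaled by 1 factor, as median-ratio scaling does, but they can under quantile normalization. The ratio of the inhibitor *G0s2* to its target *Pnpla2* was 1.54, 0.840 and 0.891 in liver Ctrl 1, 2 and 3 and 3.05, 1.97 and 2.10 in LKO 1, 2 and 3. In iWAT it was 0.487, 0.276 and 0.265 in Ctrl and 0.200, 0.130 and 0.133 in LKO. In GM it was 0.616, 0.551 and 0.220 in Ctrl and 0.217, 0.0855 and 0.0797 in LKO. LKO was thus higher than Ctrl in all 3 liver libraries and lower in all 3 iWAT and all 3 GM libraries, although the gap in GM was narrow. The mean log2 difference, LKO minus Ctrl, was 1.15 in liver, −1.12 in iWAT and −1.88 in GM, and each gave an exact two-sided permutation p of 0.1, the smallest that 3 against 3 libraries allow, so that none can pass 0.05.

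The ratio of the co-activator *Abhd5* to *Pnpla2* was lower in every LKO library than in any Ctrl library of liver and iWAT. In liver it was 0.538, 0.688 and 0.481 in Ctrl and 0.360, 0.283 and 0.300 in LKO, a log2 difference of −0.85 (exact permutation p = 0.1). In iWAT the log2 difference was −0.49 (exact permutation p = 0.1), and in GM it was −0.29 with overlap (exact permutation p = 0.2). The ratio of *Pnpla3* to *Pnpla2* in iWAT went from 0.284, 0.199 and 0.276 in Ctrl to 0.164, 0.0740 and 0.0634 in LKO, a log2 difference of −1.45 (exact permutation p = 0.1), and in GM it overlapped (log2 difference −0.57, exact permutation p = 0.4). In liver, with *Pnpla3* near 0, it overlapped too (log2 difference 0.37, exact permutation p = 0.9), and turned negative without Ctrl 3 (−0.53) or without LKO 1 (−0.55). The ratio of *Plin5* to *Plin2* was lower in LKO liver (log2 difference −0.84, exact permutation p = 0.1, and −1.32 under quantile normalization) and overlapped in iWAT (0.11, exact permutation p = 0.8) and GM (0.38, exact permutation p = 0.3). In iWAT the latter difference turned to −0.06 without Ctrl 2 and to −0.07 without LKO 3. Over these 12 ratios no p can pass 0.05 before or after adjustment.

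**Figure D4:**
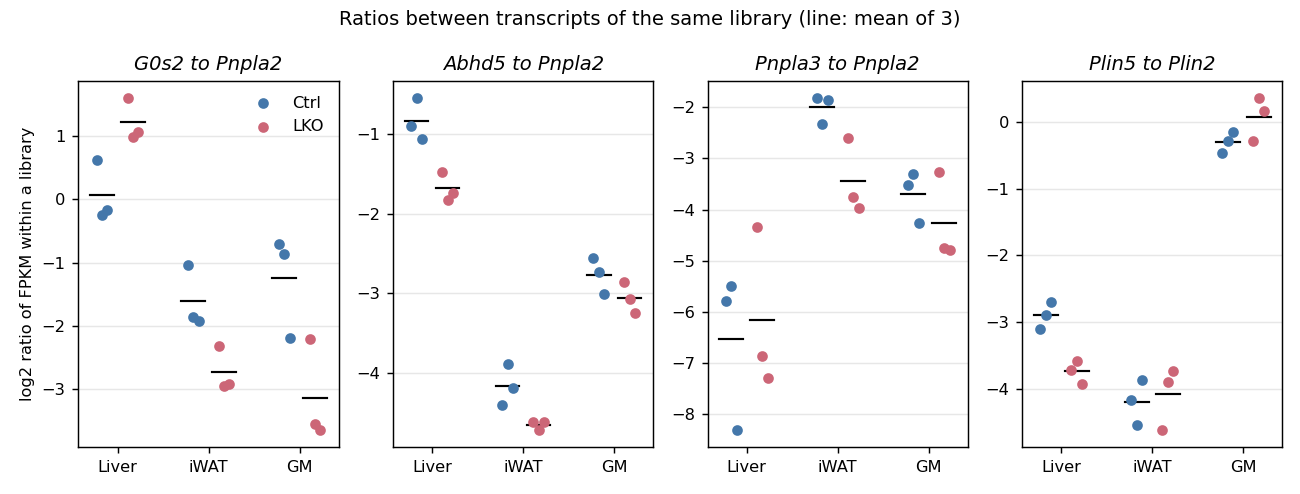
Log2 ratio of FPKM between 2 transcripts of the same library in liver, iWAT and GM, with blue points for Ctrl, red points for LKO and a black line at the mean of 3 libraries. The ratio of *G0s2* to *Pnpla2* is higher in LKO in liver, by 1.15 on average, and lower in iWAT and GM, by 1.12 and 1.88, and the ratio of *Abhd5* to *Pnpla2* is lower in LKO liver by 0.85.

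The perilipin family was also described by the share of each member. With *Plin3*, the soluble perilipin, added to the 4 of the set, *Plin2* made up 79.5% to 82.5% of the summed perilipin FPKM in liver Ctrl and 85.8% to 87.5% in liver LKO, without overlap. The summed level itself went from 249 to 313 FPKM in Ctrl to 515 to 1054 FPKM in LKO. *Plin5* went from 9.61% to 12.2% of it in Ctrl to 5.78% to 7.16% in LKO. In iWAT, *Plin1* (43.0% to 52.1%) and *Plin4* (30.4% to 40.6%) made up most of the sum in both genotypes. In GM, *Plin4* led with 40.0% to 61.5%, and *Plin1* ranged from 0.646% to 10.1% with the adipocyte markers.

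**Figure D5:**
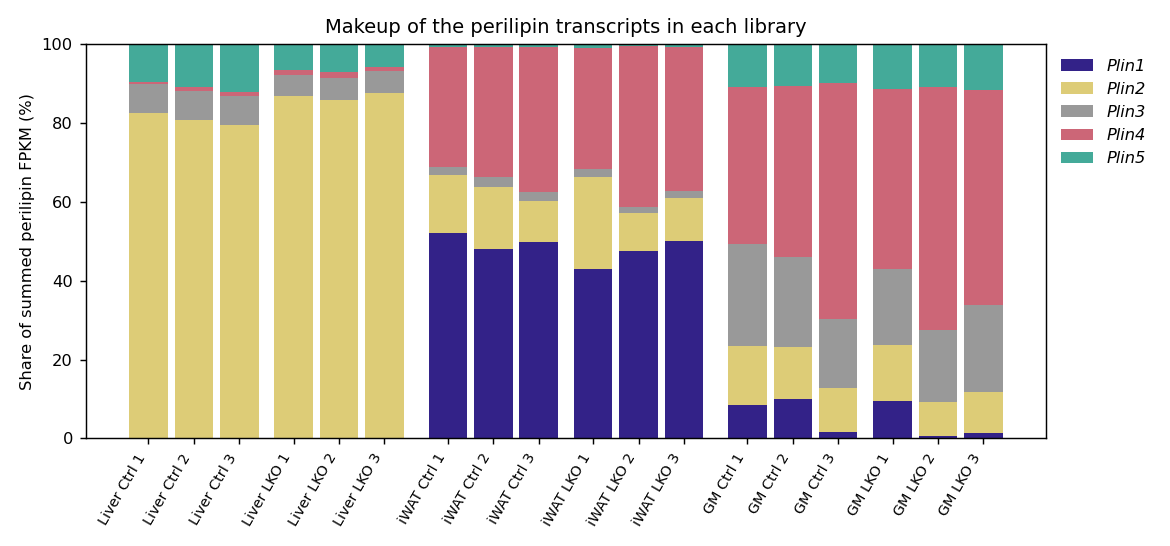
Share of each perilipin transcript in the summed perilipin FPKM of each library, in percent, for the 18 libraries of liver, iWAT and GM, with *Plin3* added to the 4 perilipins of the set. *Plin2* takes 79.5% to 87.5% of every liver bar, *Plin1* and *Plin4* lead in iWAT, and *Plin4* leads in GM.

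Whether the effect of the liver deletion differed between liver, iWAT and GM was tested in 1 limma fit of the 18 libraries, with an F test over both interaction contrasts. Of the 10 transcripts, 5 differed at an adjusted p under 0.05, beside 34.5% of the 13734 genes tested: *G0s2* (adjusted p = 0.000326), *Plin4* (0.00591), *Pnpla2* (0.0189), *Plin2* (0.0254) and *Cidec* (0.0441). *Cidec*, *Plin1* and *Pnpla3* had liver Ctrl means under 1 FPKM and entered this fit through the groups where they are high. The *Cidec* result is therefore a description, although the counts in this paragraph are over all 10. After median-ratio scaling, 2 remained, *G0s2* (adjusted p = 0.000828) and *Plin4* (0.0340), beside 23.6% of all genes. For *G0s2* the effect in liver exceeded that in iWAT by 2.80 (SE 0.51, scaled 2.38) and that in GM by 3.79 (SE 0.51, scaled 3.34) on the log2 scale. *Plin4* had a liver effect above that in iWAT by 1.68 (SE 0.35, scaled 1.33) and above that in GM by 1.16 (SE 0.35, scaled 0.78). Between iWAT and GM none of the 10 differed, beside 0.233% of all genes. Leaving out a single liver library took the count to 2 without Ctrl 2, LKO 2 or LKO 3, to 3 without Ctrl 3, to 4 without Ctrl 1 and to 6 without LKO 1.

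The other transcripts of droplet biology were read from 4 lists. Of 18 tested droplet proteins outside the set, *Tmem159* passed the filter only through its LKO libraries, and 6 of the other 17 were called in liver, 5 higher and 1 lower, beside 27.4% of all genes. Their median log2 fold change was 0.23, under the 0.33 of all genes. After scaling 3 were higher and 3 lower, beside 17.3% of all genes, with a median of −0.09. *Hilpda*, a hypoxia-inducible inhibitor of ATGL like *G0s2*, stood at 1.47, 1.48 and 1.505 FPKM in Ctrl and at 4.78, 7.46 and 12.6 FPKM in LKO, a log2 fold change of 1.81 (SE 0.28, adjusted p = 0.00434, scaled 1.51). *Hsd17b13*, a droplet protein of hepatocytes, had 216 ± 16.0 FPKM in Ctrl and 459.7 ± 70.3 FPKM in LKO (an increase of 1.08 on the log2 scale, adjusted p = 0.00254, scaled 0.68). *Plin3* had 20.3 ± 2.56 FPKM in Ctrl and 47.1 ± 17.1 FPKM in LKO (an increase of 1.11, adjusted p = 0.0196, scaled 0.72), a call lost without Ctrl 2 (adjusted p = 0.0686), Ctrl 3 (0.0703) or LKO 2 (0.0778) and with ordinary variances (0.0872).

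In triacylglycerol synthesis, *Agpat9* passed the filter only through its LKO libraries, and 1 of the other 10 tested genes was called in liver, as higher, beside 27.4% of all genes. The median log2 fold change of the 10 was 0.15, and after scaling it was −0.23, with 1 called as lower, beside 17.3% of all genes. *Agpat9*, which encodes the glycerol-3-phosphate acyltransferase GPAT3, stood at 0.488, 0.806 and 0.501 FPKM in Ctrl and at 3.57, 14.1 and 18.3 FPKM in LKO, given as a description. *Lpin2*, a phosphatidate phosphatase, rose by 0.77 on the log2 scale (46.1 ± 2.93 in Ctrl, 79.9 ± 12.1 FPKM in LKO, adjusted p = 0.00539), and was not called after scaling (0.38, adjusted p = 0.0955).

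Among other hydrolases of neutral lipids, 4 of 12 were called in liver, 2 in each direction, beside 27.4% of all genes, with a median log2 fold change of 0.10. After scaling 3 were called, all lower, beside 17.3% of all genes in either direction, with a median of −0.29. The carboxylesterases *Ces1d* and *Ces1f*, which hydrolyse triacylglycerol in hepatocytes, fell by 0.87 (421 ± 66.8 to 228 ± 9.08 FPKM, adjusted p = 0.00503, scaled −1.27) and by 0.67 (329 ± 31.4 to 207 ± 28.6 FPKM, adjusted p = 0.0107, scaled −1.07) on the log2 scale, whereas *Ces1g* rose by 1.16 (24.5 ± 2.75 to 59.4 ± 24.2 FPKM, adjusted p = 0.0214, scaled 0.77). The *Ces1* genes are close copies that can share reads, so their split is uncertain. In the fit of all 24 libraries the calls of *Ces1d* and *Ces1f* were lost (adjusted p = 0.0657 and 0.0653). That of *Ces1f* was also lost without Ctrl 2 or LKO 2 (adjusted p = 0.0538 and 0.0568) and, at a log2 fold change of −0.55, with TPM, and that of *Ces1g* without any library but LKO 1 (adjusted p = 0.0536 to 0.0750) and after scaling (0.0555), quantile normalization (0.0515) or with ordinary variances (0.0926).

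Of 11 tested genes that control lipolysis, 3 were called in liver, 2 higher and 1 lower, beside 27.4% of all genes, with a median log2 fold change of 0.06. After scaling 1 was higher and 2 were lower, beside 17.3% of all genes, with a median of −0.30. *Adora1*, an adenosine receptor that restrains lipolysis in fat cells, went from 2.94 ± 0.696 FPKM in Ctrl to 8.69 ± 3.46 FPKM in LKO (an increase of 1.24 on the log2 scale, adjusted p = 0.0145, scaled 0.91), *Adrb3*, the beta-3 adrenergic receptor, from 5.80 ± 1.26 to 2.26 ± 0.603 FPKM (−1.06, adjusted p = 0.00600, scaled −1.35), and *Fabp4*, a fatty acid carrier of adipocytes and macrophages that is also among the adipocyte markers, from 12.6 ± 0.377 to 23.6 ± 4.09 FPKM (0.84, adjusted p = 0.00481, and 0.46 after scaling, where it was not called, adjusted p = 0.107). The call of *Adora1* was lost without Ctrl 1, Ctrl 2 or LKO 2 (adjusted p = 0.0549, 0.0589 and 0.0632) and with ordinary variances (0.0745). *Adora1* shares 2018 bases with *Mybph* on the opposite strand, which did not exceed 0.0327 FPKM in any liver library.

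In iWAT and GM none of the 4 lists had a gene past the adjusted criterion. In iWAT 3 of the 56 genes tested passed the unadjusted criterion, beside 3.25% of all genes. *Aqp7*, the channel through which adipocytes release glycerol, stood at 58.3, 49.6 and 56.1 FPKM in Ctrl and at 77.2, 95.2 and 110.05 FPKM in LKO (log2 fold change 0.76, SE 0.14, adjusted p = 0.109). *Hcar2*, a receptor that restrains lipolysis, went from 25.7 ± 7.17 to 49.4 ± 14.1 FPKM (0.91, adjusted p = 0.201), and *Acsl3*, an acyl-CoA synthetase of the droplet surface, from 5.39 ± 0.307 to 2.83 ± 0.379 FPKM (−0.74, adjusted p = 0.0884). Picked for their change, all 3 had groups without overlap, as 20.8% of all genes had. In the fit of all 24 libraries, where 2.58% of all genes and 0 of the 10 transcripts of the set were called in iWAT, they passed the adjusted criterion (adjusted p = 0.00137 for *Aqp7*, 0.00312 for *Acsl3* and 0.00426 for *Hcar2*). Without LKO 1, where 0.869% of all genes were called, *Aqp7* and *Acsl3* each reached an adjusted p of 0.0460. *Acsl3* shares 9777 bases with *Utp14b* on the same strand. The list medians in iWAT were 0.01 for droplet proteins, 0.11 for triacylglycerol synthesis, 0.19 for other hydrolases and 0.30 for the control of lipolysis, beside −0.01 for all genes, and in GM they ran from −0.04 to 0.05, beside −0.03.

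Over the 18 libraries of liver, iWAT and GM, the transcripts closest to each member in log2(FPKM + 1) were found among 12580 genes by Pearson correlation, as a description, since the points share 3 tissues that differ widely. *Plin1* was closest to *Aoc3* (r = 0.998) and *Adig* (0.998), and *Lipe* to *Slc36a2* (0.998) and *Shox2* (0.997). *Plin2* was closest to *Lpcat3* (0.994) and *Alcam* (0.991), *Plin4* to *Tcf4* (0.991) and *Htra3* (0.990), and *Cidec* to *Ccdc80* (0.993) and *Gnai1* (0.992). For *Pnpla2* these were *Spata6* (0.997) and *Tmem120b* (0.996), for *Pnpla3* *Rasl12* (0.995) and *Sncg* (0.995), and for *Abhd5* *Reck* (0.993) and *Heph* (0.992). The lowest values were those of *G0s2*, with *Hmgb3* (0.969) and *Naa38* (0.964), and of *Plin5*, with *Psmd11* (0.928) and *Abca8b* (0.927).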

How the data were processed

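RNA of 24 libraries (liver, iWAT, GM and hypothalamus, 3 Ctrl and 3 LKO each) was sequenced by the authors as paired ends from a TruSeq kit that does not mark strand. The authors deposited FPKM per gene for mm10 in 1 joined table, and for each library a table with coverage, FPKM and TPM. The deposited coverage is not scaled for depth, the deposited FPKM are scaled to the fragments of a library and the deposited TPM to a fixed sum. The submitters' processing notes name FastQC 0.11.5, Trimmomatic 0.32, HISAT2 2.0.5, Bowtie2 2.2.6, STAR 2.5.2b and StringTie 1.3.3b, with no role for each. Without read counts, counting error could not be given. Depth, taken from the quotient of FPKM and coverage, was 4.45 to 8.09 gigabases per library (median 5.19).

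Samples were grouped by the labels. LKO and Ctrl were compared within each tissue by limma (version 3.58.1, R version 4.3.3, lmFit and eBayes with trend) on log2(FPKM + 1), which understates the change of low genes, over genes that reached 1 FPKM in 3 or more of the 6 libraries. A gene with a mean under 1 FPKM in 1 group passed through the other group and was left out of the counts of listed genes within a tissue. The adjusted criterion was a fold change of 1.5 or more with a p below 0.05 after Benjamini-Hochberg adjustment over the genes tested, and the unadjusted criterion the same fold with a p under 0.05. Tissues were compared in a fit of 18 libraries, and ratios with exact two-sided permutation tests of 20 arrangements. The fits were tested on simulated data. Alternatives were a pseudocount of 0.1, no filter, a mean of at least 5 FPKM, TPM, median-ratio scaling, quantile normalization, ordinary variances, all 24 libraries in 1 fit, a replicate block, leaving out each library and, after the data were seen, an adipocyte covariate in GM. Tables and plots were made with pandas 2.3.3, numpy 2.4.6, matplotlib 3.10.9 and scipy 1.17.1 in Python 3.11.15.

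The members, lists and tests were chosen with earlier results of these data known. Genes named outside the set were up to 3 per list and tissue with the largest change past the adjusted criterion, or else the unadjusted one, and the 2 closest transcripts of each member. *Lep*, *Adipoq*, *Krt14*, *Acvr1c*, *Fabp4*, *Elovl3*, *Ucp1*, *Dio2* and *Otop1* are named as markers, *Tmem159* for how it passed the filter, *Hdgfl2*, *4732471J01Rik*, *Mir6392*, *Mybph* and *Utp14b* as overlapping genes. The hypothalamus was left out of the comparison of liver, iWAT and GM. It was tested by limma within its own libraries and entered the fit of all 24 libraries. Its values are given with the Ctrl levels and among the results flagged for a closer look.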

Additional observations from a re-analysis of the deposited data

Results flagged for a closer look

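The effect of the liver deletion on 5 transcripts of the set differed between liver, iWAT and GM in the F test of the interaction: *Plin2* (adjusted p = 0.0254), *Cidec* (0.0441), *G0s2* (0.000326), *Plin4* (0.00591) and *Pnpla2* (0.0189). The *Cidec* result is a description, since its liver Ctrl mean was under 1 FPKM and it entered through the groups where it is high. Of all genes tested, 34.5% differed, and after median-ratio scaling 2 of the 5 remained, *G0s2* and *Plin4*, beside 23.6% of all genes. The log2 fold changes were 2.15, −0.66 and −1.64 for *G0s2* and 1.87, 0.19 and 0.71 for *Plin4* in liver, iWAT and GM, and the iWAT value of *G0s2* was −0.35 without Ctrl 1.

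The log2 ratio of *G0s2* to *Pnpla2* was higher in every LKO liver library than in any Ctrl liver library (mean difference 1.15) and lower in every LKO library than in any Ctrl library of iWAT (−1.12) and of GM (−1.88). The difference between tissues was not tested for this ratio.

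In the hypothalamus, outside the comparison of liver, iWAT and GM, *Plin4* stood at 1.05, 1.28 and 1.74 FPKM in Ctrl and at 1.88, 5.25 and 3.36 FPKM in LKO, a log2 fold change of 0.872 (SE 0.27, limma adjusted p = 0.999), without overlap, as 4.74% of all genes tested there were higher in LKO without overlap. The 7 skeletal muscle markers were also higher in LKO hypothalamus without overlap (summed level 9.53 to 15.5 FPKM in Ctrl, 16.6 to 17.98 FPKM in LKO), and their part in the *Plin4* values was not tested. *Pnpla2* stood at 13.2, 15.6 and 18.7 FPKM in Ctrl and at 18.8, 19.7 and 19.4 FPKM in LKO, a log2 fold change of 0.283 (SE 0.11, limma adjusted p = 0.999), also without overlap, with Ctrl 3 and LKO 1 within 0.1 FPKM of each other.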

How the results depend on the processing

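In liver the calls of *Plin2*, *Plin4* and *G0s2* held in all 15 alternatives, and 4 to 6 transcripts (*Cidec* included, which passed the filter only through its LKO libraries) were called when 1 library was left out. *Plin5* lost its call in 9 alternatives and *Pnpla2* in 2 (ordinary variances and without LKO 2). In iWAT the count past the unadjusted criterion was 1 with no filter, TPM, median-ratio scaling, quantile normalization or all 24 libraries, 0 with ordinary variances and 0 to 2 leaving out 1 library. In GM the count past the adjusted criterion was 1 (*G0s2*) with all 24 libraries or the adipocyte covariate, and leaving out 1 library gave 1 to 4 past the unadjusted criterion. The interaction count was 2 with median-ratio scaling, 3 with quantile normalization, 3 with ordinary variances and 2 to 6 leaving out 1 library. The log2 ratio of *Pnpla3* to *Pnpla2* in liver was −0.64 with a pseudocount of 1 and −0.55 to 0.93 leaving out 1 library, and that of *Plin5* to *Plin2* in iWAT −0.065 to 0.38. That of *Plin5* to *Plin2* in liver was −1.32 with quantile normalization. For the GM ratios, leaving out 1 library gave −1.07 to −0.31 for *Pnpla3* to *Pnpla2* and −0.41 to −0.19 for *Abhd5* to *Pnpla2*. It gave 0.23 to 0.56 for *Plin5* to *Plin2* in GM. Small changes turned sign: *Abhd5* in liver (−0.18 with median-ratio scaling, −0.19 with quantile normalization), *Plin1* in iWAT (0.024 with TPM, 0.0011 with median-ratio scaling, 0.0036 with quantile normalization), *Abhd5* in iWAT (0.0019 with TPM) and *Cidec* in GM (0.25 with the covariate). Leaving out 1 library gave −0.11 to 0.13 for *Plin1*, −0.34 to 0.36 for *Plin2* and −0.13 to 0.067 for *Abhd5* in iWAT, and −1.51 to 0.00074 for *Plin1*, −1.02 to 0.44 for *Cidec* and −0.078 to 0.58 for *Lipe* in GM. For *Gadd45gip1* in GM it gave −0.11 to 0.11. The cause of these changes was not tested.

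Replicates of the same number did not deviate together in every pair (r = 0.0276 to 0.154 in liver, −0.124 to 0.302 in iWAT, 0.0499 to 0.354 in GM). Between different numbers, r was −0.258 to 0.269 in liver, −0.419 to 0.298 in iWAT and −0.327 to 0.239 in GM. In liver and GM every value of the same number was above 0. The numbers were not taken as pairs. With a replicate block the counts of the set remained 6 in liver (*Cidec* included), 0 (adjusted) and 2 (unadjusted) in iWAT, 0 and 3 in GM and 5 for the interaction, and no call changed. The depth of single genes is unknown, because no counts were used.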
